A study of Mus musculus with 6 samples.

Results

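Kinesins are motor proteins that step along microtubules with the energy of ATP. One branch of the superfamily works in dividing cells, where its motors build the spindle, move chromosomes and split the daughter cells, and the genes of these motors are transcribed mainly in cells that prepare for division. Another branch carries vesicles, mitochondria and other cargo through cells at all times, and is best known from the long axons of neurons. The kinesins described here are the 41 genes, of 21853 in the deposited table, whose symbol is Kif followed by a number and an optional letter a, b or c, or Kifc followed by 1 digit. They were sorted by known role into 13 mitotic kinesins, 17 transport kinesins and 11 others, which include motors of the primary cilium and signalling kinesins.

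Cells were mouse embryonic fibroblasts (MEF) of the C57BL/6J strain with an age of 12 days in the labels, all of them xCT knockout. xCT, encoded by Slc7a11, is the cystine carrier that feeds glutathione synthesis, and cells without it are prone to the iron-dependent death called ferroptosis. Red clover extract was given to 3 samples (RCE) and water to 3 (control). No sample with intact xCT was analysed here. The sources used here give neither the dose, the time of exposure nor the number of knockout lines. Values are FPKM, fragments per kilobase of transcript relative to all fragments of a library.

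Slc7a11 stood at 0.009, 0.017 and 0.007 FPKM in RCE libraries and at 0.013, 0.027 and 0.037 FPKM in control libraries. Depth recovered from the steps between low values was 45700000 to 59000000 fragments in RCE libraries and 49400000 to 54200000 in control libraries. Replicate 1 of both groups stood apart from replicates 2 and 3 on a principal component with 36.5% of the variance over all tested genes. Of 10 fibroblast markers all were tested and abundant as a group, with summed levels of 5521 to 5896 FPKM in RCE and 6073 to 6477 FPKM in control libraries, and 2 of them, Pdgfrb and Dcn, were lower with the extract. Whether the samples came from separate cultures is not in the labels, so the spread behind every p-value is that of libraries and may be technical. Changes are RCE minus control on the log2(FPKM + 1) scale, which understates changes of low genes, and a gene is called at an adjusted p below 0.05 in limma with Benjamini-Hochberg adjustment over the 10870 genes that averaged 1 FPKM or more. That fit called 17.6% of genes higher and 6.77% lower, and the median change of all tested genes was +0.08. With median-of-ratios scaling that median was 0.00. The 10 fibroblast markers had a median change of -0.14, with 0 called higher in that fit. With median-of-ratios scaling 3 of them were lower, beside 9.95% of all tested genes. With the replicate number as a block 7 were lower, beside 15.9%.

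The start regions of 4 kinesin genes are shown because they belong to the 3 mitotic kinesins with the largest positive changes and to the transport kinesin with the most negative change. They are the 250 bases before the annotated start, from RefSeq on GRCm38.p6, each on the minus strand and written 5′ to 3′ in the direction of transcription. Kifc1 lies at chr17:33890634-33890883, Kif18b at chr11:102925125-102925374, Kif22 at chr7:127042421-127042670 and Kif1a at chr1:93101875-93102124. Capitals mark CCAAT or its complement ATTGG, the box bound by NF-Y, and TTTGAA or its complement TTCAAA, the core of the cell cycle homology region (CHR) found before many genes of mitosis.
Kifc1: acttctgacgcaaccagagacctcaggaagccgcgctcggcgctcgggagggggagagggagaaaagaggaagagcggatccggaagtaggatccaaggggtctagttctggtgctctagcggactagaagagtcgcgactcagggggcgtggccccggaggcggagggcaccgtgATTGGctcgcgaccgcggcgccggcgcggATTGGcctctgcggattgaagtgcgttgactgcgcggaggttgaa
Kif18b: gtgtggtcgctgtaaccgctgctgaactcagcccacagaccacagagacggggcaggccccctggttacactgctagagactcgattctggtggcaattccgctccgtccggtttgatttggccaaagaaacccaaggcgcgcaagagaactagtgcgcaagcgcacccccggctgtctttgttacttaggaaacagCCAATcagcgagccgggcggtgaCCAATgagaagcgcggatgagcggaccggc
Kif22: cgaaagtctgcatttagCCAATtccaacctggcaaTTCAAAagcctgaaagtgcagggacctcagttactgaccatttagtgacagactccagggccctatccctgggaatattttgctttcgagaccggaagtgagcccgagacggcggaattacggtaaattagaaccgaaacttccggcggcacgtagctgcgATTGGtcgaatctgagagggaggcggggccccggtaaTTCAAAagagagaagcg
Kif1a: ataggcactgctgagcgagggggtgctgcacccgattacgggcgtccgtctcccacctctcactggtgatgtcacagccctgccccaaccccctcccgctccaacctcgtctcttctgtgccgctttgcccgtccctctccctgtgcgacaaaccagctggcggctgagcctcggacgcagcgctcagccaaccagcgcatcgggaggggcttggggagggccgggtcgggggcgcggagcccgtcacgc

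Kifc1 held CCAAT letters 2 times, starting at -74 and -45 from the start site, and Kif18b held them 2 times, at -53 and -30. Kif22 held each motif 2 times, with the CCAAT letters at -233 and -54 and the CHR core at -215 and -17. The Kif1a window held neither, while a second annotated Kif1a start, farther downstream, had 1 CHR core. Of the 41 kinesins 32 matched the promoter table. Both strands were searched, and no marked motif overlaps another. The CCAAT letters lay before 8 of 12 mitotic kinesins with a window (Kif11, Kif14, Kif18b, Kif22, Kif23, Kif2b, Kif4 and Kifc1), 3 of 11 transport kinesins and 4 of 9 others, where 33.8% of all 32851 windows hold them. TTTGAA lay before 5 of 12 mitotic (Kif11, Kif14, Kif15, Kif22 and Kif2c), 1 of 11 transport and 2 of 9 other kinesins, against 16% of all windows. TTCGAA, another form of the CHR core, was in none of the mitotic or transport windows, in 1 other (Kif24) and in 1.34% of all windows. These matches describe letters in a window and no more.

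Mitotic kinesins were higher with the extract. Of 13 members 10 were tested, 9 rose and 0 fell, where 17.6% of all tested genes rose. Their median change was +0.31 (+0.25 with median-of-ratios scaling, +0.22 with GC correction), against +0.08 over all tested genes. The 13 tested transport kinesins had a median of +0.02, which was -0.07 with median-of-ratios scaling and -0.077 with GC correction. Summed over the 13 mitotic members, the level was 31.0 ± 0.0765 FPKM in RCE and 21.004 ± 0.783 FPKM in control libraries (SD, n = 3 each). The mitotic sum was 10.1 to 10.2% of all kinesin FPKM in RCE libraries and 6.64 to 7.08% in control libraries, so the groups did not overlap. Kif2a, which also acts at spindle poles, was placed among the others, so these counts, sums and shares leave it out. It was not called and averaged 22.7 ± 0.955 FPKM in RCE and 22.6 ± 0.0779 FPKM in control libraries (SD, n = 3 each). Its level alone was thus not far from the mitotic sum of control libraries. In bulk RNA, more cells in division and more kinesin RNA per cell cannot be told apart.

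**Figure D1:**
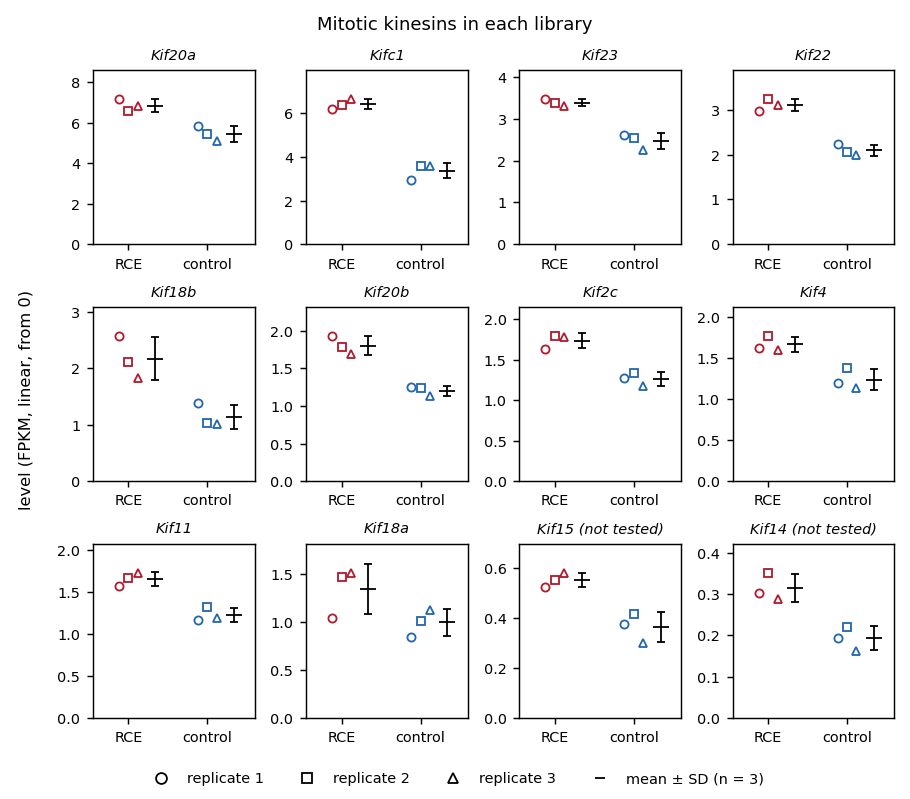
Level in FPKM (linear axis from 0) of the 12 mitotic kinesins with any signal, in 3 RCE libraries (red, left) and 3 control libraries (blue, right), with the mean and SD beside them. All RCE points lie above all control points for every gene shown except Kif18a, where RCE replicate 1 falls among the control values.

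Among motors that shape the spindle, Kifc1 and Kif11 rose. Kifc1 (ENSMUSG00000079553, chromosome 17, 33875659 to 33890661 on mm10) is a minus-end motor of the kinesin-14 family that bundles spindle microtubules and gathers extra centrosomes. It stood at 6.17, 6.38 and 6.63 FPKM in RCE libraries, against 2.96, 3.57 and 3.56 FPKM in control libraries. The lowest RCE library was thus well above the highest control library, and the change was the largest of the tested kinesins (log2 change 0.76, SE 0.07, limma adjusted p = 0.00109). Kifc1 shares 45.8% of the 50-base words of its longest transcript with Kifc5b, a close mouse paralogue on the same chromosome, so its reads may be split between both genes. Kifc5b, whose symbol falls outside the naming rule, moved likewise, at 1.92 ± 0.0998 FPKM in RCE and 1.02 ± 0.0123 FPKM in control libraries (SD, n = 3 each, log2 change 0.53, limma adjusted p = 6.37e-04). Kif11 is the kinesin-5 motor that pushes spindle poles apart. It stood at 1.57, 1.67 and 1.73 FPKM in RCE libraries and at 1.17, 1.33 and 1.19 FPKM in control libraries, again without overlap (log2 change 0.25, SE 0.05, adjusted p = 0.0119). Kif15 is a kinesin-12 that backs up Kif11. Its 0.525, 0.551 and 0.582 FPKM in RCE libraries lay above its 0.376, 0.416 and 0.298 FPKM in control libraries, but its mean was under the 1 FPKM needed for the main test. With no low-value filter it passed (log2 change 0.19, adjusted p = 0.0202).

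Of 5 tested kinesins that act on chromosomes and microtubule ends, 4 rose, beside 17.6% higher and 6.77% lower among all tested genes. Kif18b, a kinesin-8 that shortens astral microtubules, stood at 2.57, 2.10 and 1.83 FPKM in RCE libraries and at 1.38, 1.03 and 1.00 FPKM in control libraries. Both groups had their highest value in replicate 1 and did not overlap (log2 change 0.57, SE 0.10, adjusted p = 0.0126). Kif22, the chromokinesin that pushes chromosome arms towards the spindle equator, stood at 2.97, 3.23 and 3.10 FPKM in RCE libraries, against 2.22, 2.06 and 1.99 FPKM in control libraries (log2 change 0.41, SE 0.05, adjusted p = 0.00285). Kif2c, the kinesin-13 that depolymerises microtubules at kinetochores, stood at 1.63, 1.79 and 1.78 FPKM in RCE libraries, against 1.28, 1.33 and 1.17 FPKM in control libraries (0.28, adjusted p = 0.00938). The chromokinesin Kif4 stood at 1.620, 1.768 and 1.602 FPKM in RCE libraries, against 1.199, 1.374 and 1.133 FPKM in control libraries (0.25, adjusted p = 0.0193). All these genes were higher in each RCE library than in any control library, as were 31.2% of all tested genes. Exons of Kif4 overlap those of Pdzd11 on the opposite strand, which stood at 35.2 ± 1.28 FPKM in RCE and 30.2 ± 0.921 FPKM in control libraries (SD, n = 3 each, log2 change 0.22, limma adjusted p = 0.0219). The sources used here do not say whether counting used strand, and the part of Pdzd11 reads in the Kif4 value was not tested. Kif18a, the kinesin-8 that damps chromosome oscillations, was the 1 tested mitotic kinesin without a call. Its exons overlap those of Mettl15 on the opposite strand. It stood at 1.05, 1.47 and 1.52 FPKM in RCE libraries and at 0.848, 1.01 and 1.13 FPKM in control libraries. Replicate 1 was the lowest of its group in both, so the groups overlapped, although RCE was higher in 3 of 3 same-numbered pairs (log2 change 0.23, adjusted p = 0.132). With the replicate number as a block it was called higher (adjusted p = 0.00342), and also without RCE replicate 1 (adjusted p = 0.0225) and without replicate 1 of both groups (adjusted p = 0.00452).

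Kinesins of cytokinesis, the splitting of the cell after division, rose as well. Kif23, a kinesin-6 that forms the centralspindlin complex with Racgap1, stood at 3.47, 3.38 and 3.29 FPKM in RCE libraries and at 2.61, 2.54 and 2.26 FPKM in control libraries (log2 change 0.34, SE 0.05, adjusted p = 0.00634). Kif20b, another kinesin-6, stood at 1.93, 1.79 and 1.69 FPKM in RCE libraries, against 1.247, 1.235 and 1.127 FPKM in control libraries (0.35, adjusted p = 0.00489). Kif20a, the kinesin-6 that brings the Aurora B complex to the central spindle, had the highest level of the mitotic kinesins. It stood at 7.17, 6.56 and 6.83 FPKM in RCE libraries and at 5.86, 5.43 and 5.09 FPKM in control libraries (0.28, adjusted p = 0.0177). For each of these kinesin-6 genes RCE libraries lay wholly above control libraries, as for 31.2% of all tested genes. Exons of Kif20a overlap those of Cdc23 on the opposite strand, which also rose (11.1 ± 0.642 FPKM in RCE and 9.56 ± 0.181 FPKM in control libraries, SD, n = 3 each, log2 change 0.20, limma adjusted p = 0.0359), and its part in the Kif20a value was not tested. Kif14, a kinesin-3 of the midbody, was below the minimum mean, at 0.303, 0.352 and 0.287 FPKM in RCE and 0.194, 0.221 and 0.163 FPKM in control libraries, and passed with no low-value filter (log2 change 0.14, adjusted p = 0.0195). Kif2b was at 0 FPKM in all 6 libraries, where 3 fragments would have given 0.0227 to 0.0293 FPKM.

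Depth bounds these values. On the longest annotated transcript, Kif11 rested on about 346, 474 and 469 fragments in RCE libraries and 306, 317 and 283 in control libraries. Kif18b rested on about 391, 413 and 342 in RCE libraries and 249, 170 and 165 in control libraries. These numbers cover counting error only, since amplified copies are not independent molecules. The calls of Kifc1, Kif22 and Kif23 held under every alternative that tested them, and the others did not. Kif20a was not called with median-of-ratios scaling (adjusted p = 0.0755), quantile normalization (0.107) or GC correction (0.104), Kif20b with GC correction (0.0651), Kif4 with quantile normalization (0.130) or GC correction (0.0702), and Kif11 and Kif2c with quantile normalization (0.0847 and 0.0558). Kif18b was not called without RCE replicate 2 (adjusted p = 0.0509) or control replicate 2 (0.0535) or 3 (0.0531), and Kif2c without RCE replicate 2 (0.0502). Kif20a was not called without RCE replicate 2 (adjusted p = 0.0517) or 3 (0.0628) or control replicate 2 (0.0671) or 3 (0.0622). Without RCE replicate 2, RCE replicate 3 or control replicate 3 the adjusted p of Kif4 was 0.0812, 0.0537 and 0.0695, and that of Kif11 was 0.0570, 0.0502 and 0.0522. Of the 10 tested, 4 were called without RCE replicate 2 and 5 without control replicate 3, with medians of +0.32 and +0.28. Without RCE replicate 2, 685 of all 10870 tested genes were higher and 394 lower, against 1910 and 736 in the main fit. Fits with 1 library left out, that without control replicate 3 among them, gave 685 to 2040 genes higher and 394 to 734 lower. With replicate number as a block all 10 were called higher, where 46.6% of all tested genes were higher and 15.9% lower. With median-of-ratios scaling 8 were higher (8.4% of all tested genes were higher and 9.95% lower), and with GC correction 6 (8.19% higher and 10.9% lower). With the block and GC correction together 9 were higher (25.3% higher and 27.2% lower), and without replicate 1 of both groups 10 (40.1% higher and 13.6% lower). With no low-value filter 11 of 12 were higher, beside 11.3% higher and 5.24% lower among all genes so tested. None of the mitotic kinesins was called lower in these fits.

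Transport kinesins were far more abundant and most were not called. Of 17 members 13 were tested, 1 rose and 2 fell, beside 17.6% higher and 6.77% lower among all tested genes. Summed over the 17, their level was 244 ± 1.25 FPKM in RCE and 255 ± 0.712 FPKM in control libraries (SD, n = 3 each), most of it from 3 genes. Kif5b, the kinesin-1 heavy chain used by most cells, had the highest level of all kinesins, at 84.9, 90.4 and 90.2 FPKM in RCE libraries and 82.1, 90.2 and 89.6 FPKM in control libraries. Replicate 1 was the lowest in both groups and the groups overlapped (log2 change 0.02, 95% interval -0.12 to 0.16, adjusted p = 0.829). Kif1c, a kinesin-3 of Golgi and vesicle traffic, came next at 47.8, 46.4 and 45.7 FPKM in RCE libraries and 50.726, 48.983 and 48.789 FPKM in control libraries. All of its RCE values lay below all control values, but the difference was small (-0.08, 95% interval -0.19 to 0.02, adjusted p = 0.199). It was called lower with the replicate block (adjusted p = 0.0144), with GC correction (0.0403) and without replicate 1 of both groups (0.0453).

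The members called lower, Kif1a and Kif21b, are best known from neurons. Of other kinesins known from neurons, Kifc2, Kif5a, Kif5c and Kif17 were too low for the main test. Their means were higher in RCE than in control libraries, without a call, and the groups of Kif5a, Kif5c and Kif17 overlapped. Exons of Kifc2 overlap those of Cyhr1 on the opposite strand (9.24 FPKM in RCE and 8.75 FPKM in control libraries on average). Exons of Kif17 overlap those of Sh2d5 on the same strand (0.255 and 0.230 FPKM). The part of these genes in the Kifc2 and Kif17 values was not tested. Kif1a (ENSMUSG00000014602, chromosome 1, 93015464 to 93101951) is the kinesin-3 that carries synaptic vesicle precursors and dense-core vesicles along axons. In these fibroblasts it came after Kif5b and Kif1c in level, at 30.7, 27.8 and 26.7 FPKM in RCE libraries, against 42.6, 37.0 and 37.6 FPKM in control libraries. Replicate 1 was the highest of its group in both, and the highest RCE library stayed below the lowest control library (log2 change -0.45, SE 0.08, 95% interval -0.63 to -0.26, adjusted p = 0.00995). Without RCE replicate 2 its adjusted p was 0.0509 at a change of -0.43. Kif21b, a kinesin-4 that also restrains microtubule growth, stood at 6.89, 6.12 and 5.70 FPKM in RCE libraries and at 9.12, 7.58 and 7.93 FPKM in control libraries. These groups did not overlap either (-0.35, SE 0.09, adjusted p = 0.0316), yet the call was lost without any one library other than RCE replicate 1 (adjusted p of 0.109 and 0.0988 without RCE replicates 2 and 3, and of 0.057, 0.0555 and 0.0833 without control replicates 1, 2 and 3). Both genes were lower in 3 of 3 same-numbered pairs, which groups without overlap give under any numbering. Both stayed called with median-of-ratios scaling (-0.53 and -0.42) and with GC correction (-0.51 and -0.40).

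Of 8 neuron markers, all were in the table and 3 were tested. Of these 1 rose and 2 fell, beside 17.6% higher and 6.77% lower among all tested genes. The markers Stmn2 and Gap43 fell, at 2.51 ± 0.332 and 1.59 ± 0.0848 FPKM in RCE and 3.60 ± 0.0417 and 1.93 ± 0.0773 FPKM in control libraries (SD, n = 3 each, limma adjusted p = 0.0118 and 0.0289), while Tubb3 rose (log2 change 0.21, adjusted p = 0.0258). Tubb3 was not called with median-of-ratios scaling (0.13, adjusted p = 0.143). The summed level of the list was 15.7 to 17.0 FPKM in RCE and 15.6 to 16.6 FPKM in control libraries. Most of this sum was Tubb3, at 12.1 ± 0.433 FPKM in RCE and 10.3 ± 0.459 FPKM in control libraries. Of the untested, Rbfox3, Snap25, Syt1 and Nefl were near 0, with group means of at most 0.0237 FPKM in RCE and 0.0217 FPKM in control libraries. Map2 had a lower mean in RCE, at 0.274 ± 0.0474 FPKM in RCE and 0.343 ± 0.0142 FPKM in control libraries (SD, n = 3 each). Its groups overlapped only through RCE replicate 1 (0.328 FPKM) and control replicate 2 (0.327 FPKM). Of 5 macrophage markers 2 were tested, 0 rose and 1 fell, beside the same 17.6% and 6.77%. Lyz2 fell, at 8.31 ± 0.661 FPKM in RCE and 11.6 ± 0.193 FPKM in control libraries (SD, n = 3 each, log2 change -0.43, limma adjusted p = 0.00468). Cd68 overlapped between groups (-0.12, limma adjusted p = 0.511). Of the untested, Csf1r and Ptprc were lower in every RCE library than in any control library, beside 10.9% of all tested genes. Adgre1 overlapped. The summed level of these markers was 11.2 to 12.6 FPKM in RCE and 15.3 to 16.4 FPKM in control libraries, and Ptprc was near 0 (0.0383 FPKM in RCE and 0.066 FPKM in control libraries on average). The part of other cell types in the Kif1a and Kif21b values was not tested.

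**Figure D2:**
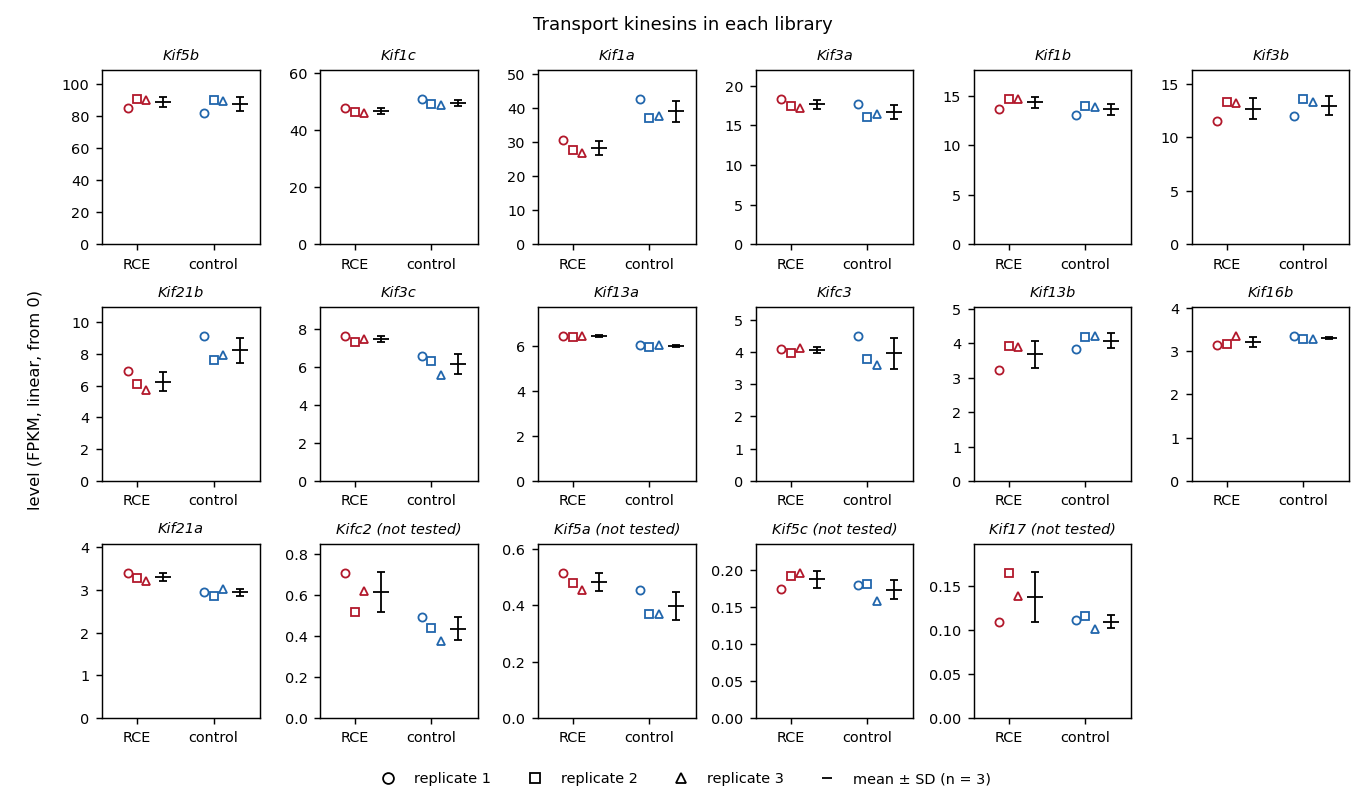
Level in FPKM (linear axis from 0, its range set per gene) of the 17 transport kinesins in 3 RCE libraries (red, left) and 3 control libraries (blue, right), with the mean and SD. Kif1a and Kif21b sit lower in every RCE library than in any control library, Kif3c sits higher, and Kif5b overlaps between groups.

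Among tested members of the kinesin-2 family, which drives transport into cilia and towards the cell edge, only Kif3c was called in the main fit. Kif3c stood at 7.64, 7.30 and 7.46 FPKM in RCE libraries, above its 6.57, 6.33 and 5.57 FPKM in control libraries (log2 change 0.25, SE 0.06, adjusted p = 0.0328). Exons of Kif3c overlap 2 antisense genes. That call was lost with GC correction (adjusted p = 0.124), with quantile normalization (0.165), with median-of-ratios scaling (0.135) and with no low-value filter (0.05005). It was also lost without RCE replicate 1 (adjusted p = 0.0615), 2 (0.0955) or 3 (0.0975) and without control replicate 2 (0.0816) or 3 (0.0717). Kif3a and Kif3b of the same family were not called, and differences between members were not tested. Kif3a averaged 17.6 ± 0.588 FPKM in RCE and 16.7 ± 0.872 FPKM in control libraries (SD, n = 3 each, 95% interval of the change -0.05 to 0.20), and Kif3b averaged 12.7 ± 0.982 FPKM in RCE and 12.9 ± 0.855 FPKM in control libraries (-0.21 to 0.15). The intervals allow changes of either sign for both.

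The 6 other tested transport kinesins changed by -0.12 (Kif13b) to +0.12 (Kif21a). They included the kinesin-3 motors Kif1b, of mitochondria and synaptic vesicle precursors, at 14.3 ± 0.546 FPKM in RCE and 13.6 ± 0.518 FPKM in control libraries, and Kif16b, of early endosomes, at 3.22 ± 0.116 FPKM in RCE and 3.30 ± 0.0319 FPKM in control libraries (SD, n = 3 each). Kif13a, which carries endosomes towards the cell edge, had tight groups that did not overlap, at 6.44 ± 0.041 FPKM in RCE and 6.03 ± 0.0542 FPKM in control libraries (log2 change 0.08, adjusted p = 0.142). Relative to the median of all tested genes this change was close to 0. The minus-end motor Kifc3 averaged 4.05 ± 0.0901 FPKM in RCE and 3.96 ± 0.475 FPKM in control libraries, with control replicate 1 the highest of all 6. Kif13b, a kinesin-3 of vesicle traffic, averaged 3.68 ± 0.385 FPKM in RCE and 4.08 ± 0.221 FPKM in control libraries with overlap, and Kif21a, a kinesin-4 that restrains microtubule growth, averaged 3.30 ± 0.0997 FPKM in RCE and 2.945 ± 0.0873 FPKM in control libraries without overlap (SD, n = 3 each, adjusted p of 0.274 and 0.0688 in limma). With the replicate block, 4 transport kinesins were higher and 4 lower, beside 46.6% and 15.9% of all tested genes. The additional calls were Kif3a (adjusted p = 0.042), Kif13a (0.045) and Kif21a (0.0215) among the higher, and Kif1c (0.0144) and Kif13b (0.0242) among the lower. Below the minimum mean stood Kifc2, at 0.613 ± 0.0971 FPKM in RCE and 0.435 ± 0.0576 FPKM in control libraries, a minus-end motor best known from neurons (SD, n = 3 each). The neuronal kinesin-1 chains followed, with Kif5a at 0.483 ± 0.0311 FPKM in RCE and 0.397 ± 0.0491 FPKM in control libraries and Kif5c at 0.188 ± 0.0115 FPKM in RCE and 0.174 ± 0.0127 FPKM in control libraries. Kif17, a kinesin-2 of dendrites, was at 0.137 ± 0.028 FPKM in RCE and 0.109 ± 0.0076 FPKM in control libraries. None of these 4 passed with no low-value filter (adjusted p of 0.0823 to 0.440).

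**Figure D3:**
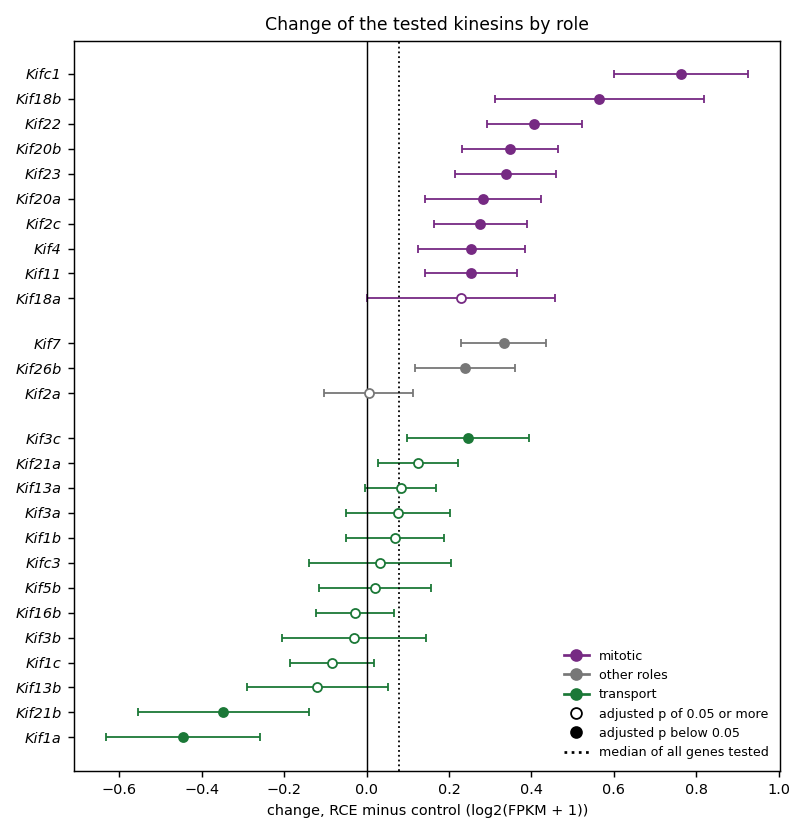
Change of the 26 tested kinesins, RCE minus control on the log2(FPKM + 1) scale, with 95% intervals from limma, grouped as mitotic (purple), other roles (grey) and transport (green). Filled points have an adjusted p below 0.05, and the dotted line is the median of all tested genes at +0.08. All 10 mitotic kinesins lie above that line, and the transport kinesins lie on both sides of 0.

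Among kinesins of other roles, 3 of 11 were tested and 2 rose, where 17.6% of all tested genes rose. Kif7, the cilium tip kinesin that regulates Hedgehog signalling, stood at 4.814, 4.495 and 4.585 FPKM in RCE libraries, against 3.59, 3.37 and 3.46 FPKM in control libraries. The groups were tight and did not overlap (log2 change 0.33, SE 0.04, adjusted p = 0.00383), and the call held under every alternative that tested it. Exons of Kif7 overlap an antisense gene and those of the replication gene Ticrr on the opposite strand, which was at 0.547 ± 0.076 FPKM in RCE and 0.303 ± 0.0587 FPKM in control libraries (SD, n = 3 each), and its part in the Kif7 value was not tested. Kif26b, a kinesin-11 of cell adhesion and polarity that acts in Wnt5a signalling, stood at 2.07, 1.95 and 1.92 FPKM in RCE libraries and 1.64, 1.39 and 1.55 FPKM in control libraries (0.24, adjusted p = 0.0190). That call was lost with GC correction (adjusted p = 0.0693), with quantile normalization (0.193) and with median-of-ratios scaling (0.0696), and without RCE replicate 2 (0.0692) or 3 (0.0551) or control replicate 2 (0.0572) or 3 (0.0613). Kif2a, a kinesin-13 depolymerase of neurons, cilia and spindle poles, was at 23.6, 22.8 and 21.7 FPKM in RCE libraries and 22.6, 22.7 and 22.5 FPKM in control libraries, with overlapping groups (log2 change 0.0049, 95% interval -0.10 to 0.11, adjusted p = 0.953).

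The 8 untested members of this class were low. Kif24, a kinesin-13 of the centriole that holds back cilium growth, was at 0.282, 0.186 and 0.214 FPKM in RCE libraries, above its 0.128, 0.127 and 0.166 FPKM in control libraries, and did not pass with no low-value filter (adjusted p = 0.0749). Kif9 and Kif6, kinesin-9 motors of motile cilia, were at 0.604 ± 0.0577 and 0.261 ± 0.0367 FPKM in RCE libraries and 0.525 ± 0.0494 and 0.232 ± 0.0375 FPKM in control libraries (SD, n = 3 each). The other members Kif27, Kif26a, Kif19a, Kif28 and Kif12 had means of 0.00417 to 0.0943 FPKM over the 6 libraries. Over all 41 kinesins, tested or not, RCE libraries lay wholly above control libraries for 21 and wholly below for 3. The matching share over all genes, tested or not, was not computed. Among the 26 tested kinesins 14 lay wholly above and 3 wholly below, beside 31.2% and 10.9% of all tested genes.

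Genes that work with the mitotic kinesins were also higher. Of 34 genes of mitosis listed as partners 31 were tested, 23 rose and 0 fell, with a median change of +0.33, beside 17.6% higher and 6.77% lower among all tested genes. With median-of-ratios scaling 17 rose and 0 fell (8.4% and 9.95% of all tested genes). Racgap1, the partner of Kif23, was at 6.98 ± 0.0854 FPKM in RCE and 4.95 ± 0.138 FPKM in control libraries (SD, n = 3 each, log2 change 0.42, limma adjusted p = 0.00123). The midzone protein Prc1, which recruits Kif4, changed by 0.39, topoisomerase Top2a by 0.55 and the microtubule-bound Gtse1 by 0.67. Cenpe, the kinesin-7 of the kinetochore, carries a symbol outside the naming rule and is named here for its family. It was at 2.84 ± 0.172 FPKM in RCE and 1.95 ± 0.124 FPKM in control libraries (0.38, adjusted p = 0.00489). Of 30 genes of DNA replication 27 were tested, 19 rose and 0 fell (median +0.35), beside the same 17.6% and 6.77%, and 17 rose with median-of-ratios scaling, beside 8.4%. The smallest p were those of the primase subunit Prim1 (0.66), the helicase subunits Mcm3 (0.56) and Mcm2 (0.45) and the polymerase Pole (0.41). Cdt1, which loads the helicase and is named after its values were seen, was lower in every RCE library than in any control library, at 7.97 ± 0.467 FPKM in RCE and 9.28 ± 0.826 FPKM in control libraries (SD, n = 3 each, log2 change -0.19, limma adjusted p = 0.0992). With the replicate block it was called lower (adjusted p = 0.0019), 25 genes of the list were higher and 1 lower, and all 31 mitosis partners were higher, beside 46.6% higher and 15.9% lower among all tested genes.

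Calls among genes that work with the transport kinesins changed with the replicate block, and those of dynein and tubulin genes also with the scaling. Of 23 light chain and adaptor genes 22 were in the table and 19 tested. Of these 0 rose and 1 fell, with a median change of -0.01, beside 17.6% higher and 6.77% lower among all tested genes. With median-of-ratios scaling again 0 rose and 1 fell, beside 8.4% and 9.95%. The 1 was Trak2, which links kinesin-1 to mitochondria, at 14.1 ± 0.14 FPKM in RCE and 15.5 ± 0.305 FPKM in control libraries (SD, n = 3 each, log2 change -0.14, limma adjusted p = 0.0474). Klc1, the main light chain of kinesin-1, was at 35.9 ± 1.9 FPKM in RCE and 35.4 ± 0.358 FPKM in control libraries (0.02, adjusted p = 0.835), and Kifap3, the third subunit of kinesin-2, at 14.3 ± 1.24 FPKM in RCE and 14.5 ± 0.92 FPKM in control libraries (-0.02, adjusted p = 0.853). Of 27 genes of cytoplasmic dynein, the opposing motor, and its helpers, 23 were tested, 3 rose (Dctn5, Nde1 and Dctn4, by 0.18, 0.18 and 0.13) and 0 fell, near the 17.6% and 6.77% of all tested genes, whereas with median-of-ratios scaling 0 rose and 3 fell (8.4% and 9.95%). Of 16 tubulin genes 13 were tested. Tuba1b, Tubb3 and Tuba1a rose (0.33, 0.21 and 0.25) and Tubb2a fell (-0.31, at 34.6 ± 1.37 FPKM in RCE and 43.2 ± 1.96 FPKM in control libraries), beside 17.6% and 6.77% of all tested genes, and with median-of-ratios scaling 1 tubulin rose and 2 fell. With the replicate block, 3 adaptors were higher and 3 lower, 5 dynein genes were higher and 5 lower, and 8 tubulins were higher and 2 lower, beside 46.6% higher and 15.9% lower among all tested genes. Tubulin genes resemble each other closely, so reads may be shared among them.

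**Figure D4:**
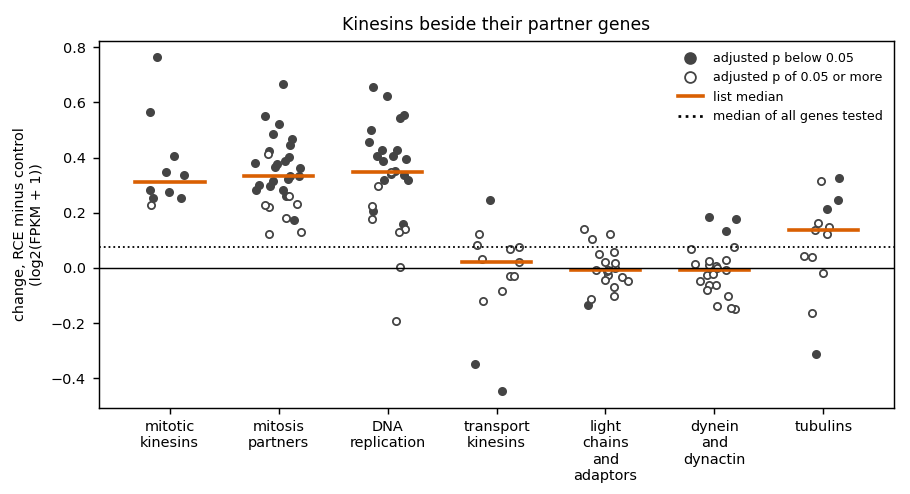
Change of each tested gene, RCE minus control on the log2(FPKM + 1) scale, for the kinesins of both main roles and 5 lists of partner genes, with the list median (orange) and the median of all tested genes (dotted, +0.08). The medians of mitotic kinesins (+0.31, or +0.25 with median-of-ratios scaling), mitosis partners (+0.33) and DNA replication genes (+0.35) lie close to each other. They lie above those of transport kinesins (+0.02, or -0.07 with median-of-ratios scaling), adaptors (-0.01) and dynein (-0.01). The tubulin median (+0.14) lies in between.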

How the data were processed

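Messenger RNA of 6 samples was sequenced from TruSeq Stranded libraries, per the labels' protocols. The authors deposited 1 table of 21853 genes, with FPKM as its unit by the submitters' processing notes and the values, since its header names none. Those notes list STAR 2.5.4, Cuffdiff 2.2.1, Cufflinks and mm10, with no roles. The annotation the authors used is not stated there. No count model was fitted, because FPKM are normalized.

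Coordinates, transcript length, GC content and exon overlaps came from GENCODE M21, which holds all 21853 identifiers. Depth was set where FPKM between 0.02 and 0.5 of genes with 1 transcript of up to 3 kb gave whole fragments within 0.1, which 100% of 503 to 540 values per library did. limma 3.58.1 (R 4.3.3) compared 3 RCE with 3 control libraries on log2(FPKM + 1), pseudocount 1, with an intensity trend, 2-sided, and was tested on simulated data. Libraries of both groups with the same number deviated together from their group means (r over genes of 0.92, 0.62 and 0.68 for numbers 1, 2 and 3). Deviations in a group of 3 sum to 0. With replicate 1 apart in both groups, positive values for numbers 2 and 3 thus follow under any numbering. These values set apart replicate 1 only, and the block pairs numbers 2 and 3 by label alone. RCE replicate 2 correlated at 0.72 with control replicate 3, and RCE replicate 3 at 0.77 with control replicate 2, so replicates 2 and 3 are not told apart. The block was an alternative, beside other pseudocounts, filters, scalings, GC correction and left-out libraries. Without a low-value filter, genes at 0 in all libraries were left out.

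Kinesins came from the symbol rule and roles from textbook knowledge. Members and gene lists were chosen with earlier results of these data known, so no p-value was computed for a list. Every kinesin is accounted for, and up to 4 genes of each partner list with the smallest p are named. Klc1, Kifap3, Cenpe and Cdt1 were named after their values were seen. The other marker lists of endothelial (summed 1.327 to 1.596 FPKM in RCE, 1.415 to 1.657 FPKM in control), epithelial (1.23 to 2.395 FPKM in RCE, 1.999 to 2.89 FPKM in control), muscle (126 to 146 FPKM in RCE, 116 to 135 FPKM in control, with Myod1 at 0) and multiciliated cells (0.77 to 0.858 FPKM in RCE, 0.608 to 0.754 FPKM in control) were summed per library. Of the muscle markers, Des was called higher, at 53.1 ± 4.29 FPKM in RCE and 40.1 ± 3.6 FPKM in control libraries (SD, n = 3 each, log2 change 0.39, limma adjusted p = 0.0203). With median-of-ratios scaling Des was not called (adjusted p = 0.0715). Acta1 was not called (81.4 and 84.9 FPKM on average in RCE and control libraries, limma adjusted p = 0.627).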

Additional observations from a re-analysis of the deposited data

How the results depend on the processing

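Over 17 alternatives the 26 tested kinesins gave 427 values, of which 367 kept their call or their lack of one, 44 lost a call, 14 gained one and 2 reversed. Of the 14 called members 4 lost no call where tested (Kifc1, Kif22, Kif23 and Kif7). The reversals were Kif2a (-0.11) and Kif5b (-0.077), both called lower with the replicate block and GC correction together. The cause of these moves was not tested.

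Counts over all genes, higher and lower, were 1910 and 736. They were 867 and 485 with a minimum mean of 5 FPKM, which tests fewer genes, 913 and 1082 with median-of-ratios scaling, 785 and 857 with quantile normalization, 890 and 1185 with GC correction, 5060 and 1730 with the replicate block, 2746 and 2952 with the replicate block and GC correction, and 4364 and 1480 without replicate 1 of both groups. Single libraries left out gave 685 to 2040 higher and 394 to 734 lower. For kinesins, 12 higher became 2 with a minimum mean of 5 FPKM (1 mitotic), 6 with quantile normalization (5 mitotic) and 7 with GC correction, and the 2 lower became 4 with the replicate block and 8 with the block and GC correction. Transport kinesins called higher were 0 with GC correction, quantile normalization, median-of-ratios scaling and no low-value filter, and 4 with the block, and those called lower were 4 with the block and 7 with the block and GC correction. Single libraries left out gave 5 to 12 kinesins higher and 0 to 2 lower, 4 to 10 mitotic higher, and 0 to 1 transport higher and 0 to 2 lower. Without replicate 1 of both groups 13 kinesins were higher and 3 lower. No mitotic kinesin was called lower in any of these fits. Single libraries left out moved the mitotic median to 0.28 to 0.34 and the transport median to -0.02 to 0.03. The mitotic median was 0.44 with a pseudocount of 0.1, 0.21 with quantile normalization and 0.22 with GC correction, with or without the block. The transport median was -0.077 with GC correction, with or without the block. It was -0.07 with median-of-ratios scaling and -0.05 with quantile normalization. Depth limits the members below 1 FPKM.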
